A study of Homo sapiens with 12 samples.

Results

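Keratins form the intermediate filaments of epithelial cells, and 10 epithelial keratin genes were followed here in HT-29 cells, a line derived from a human adenocarcinoma of the colon. The 10 genes were chosen by symbol (KRT7, KRT8, KRT17, KRT18, KRT19, KRT20, KRT23, KRT80, KRT6B and KRT15), and all 10 had a row among the 25528 of the deposited expression table, which holds 54 keratin genes in all. The choice was made with earlier results of the same data known, among them the fold changes of KRT17 and KRT20. Levels, fold changes and calls of the 10 genes are therefore given as a description, and nothing is supported with them. Lists of other genes set beside them were also chosen with earlier results known. Adjusted p-values printed for listed genes are therefore no independent tests.

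The study asked how stronger WNT signalling changes gene expression in cells that carry mutant APC, the genotype given for all 12 libraries. Cells were infected with lentivirus. In the open reading frame arm they received GFP, the control, or CTNNB1, which encodes beta-catenin, and were collected 2 days after infection. In the hairpin arm they carried the control hairpin shNT1 or a hairpin against APC (shAPC), and doxycycline at 2 µM was given 1 day before collection. There were 4 groups of 3 libraries, all from this single line, and the labels do not say whether replicates came from separate cultures, so tests measure only the spread between these libraries. The arms differ in vector, collection day and doxycycline, and these cannot be told apart between them.

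A keratin filament is built from heterodimers of 1 acidic type I and 1 basic type II chain, so the types are made together. KRT8 (type II) and KRT18 (type I) are the pair of simple, single-layered epithelia such as the intestine. KRT19 is a further type I chain of simple epithelia, and KRT20 marks differentiated cells of the intestinal epithelium. KRT15, KRT17 and KRT6B belong mainly to stratified epithelia and skin appendages, where KRT17 and KRT6B are also known as stress or wound keratins.

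Values are TPM, a measure of transcript abundance scaled for transcript length and library total, so levels can be compared between genes. APC was between 15.8 and 17.3 TPM in shNT1 and between 5.48 and 6.59 TPM in shAPC. CTNNB1 was between 144 and 150 TPM in GFP and between 156 and 165 TPM in the CTNNB1 group, where it was not called (log2 fold change 0.13, SE 0.044, limma adjusted p = 0.059). Of 10 colon epithelium markers 7 averaged at least 1 TPM, EPCAM among them (1671 TPM in GFP), while CDX1, CDX2 and CDH17 averaged under 1 TPM in every group. Summed over the list, these markers lay between 2860 and 2920 TPM in GFP, 2680 and 2790 in CTNNB1, 2900 and 2960 in shNT1, and 2390 and 2560 in shAPC. Of 12 markers of fibroblasts, endothelium and leukocytes, 11 stayed under 1 TPM in all libraries. The exception, CD68, averaged 27 TPM in GFP, 13.2 in CTNNB1, 13.8 in shNT1 and 7.52 in shAPC. Genes with a TPM above 0 numbered between 14756 (shNT1 replicate 3) and 16186 (shAPC replicate 1). Sequencing depth cannot be read from TPM and is unknown for every value here. In these bulk libraries, fewer cells expressing a gene and less RNA per cell cannot be told apart.

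The 10 genes lie in the main keratin clusters of the genome. In GRCh38 coordinates of RefSeq, 5 of them (KRT80, KRT7, KRT6B, KRT8 and KRT18) span 783.9 kb of chromosome 12. The other 5 (KRT20, KRT23, KRT15, KRT19 and KRT17) span 748.7 kb of chromosome 17. KRT18 (ENSG00000111057, chr12:52948855-52952906, plus strand) is the only type I gene among those on chromosome 12. It overlaps KRT8 (ENSG00000170421, chr12:52897191-52949860, minus strand) by 1006 bases. Strand use in the counting is not given in the sources used here, so reads in that overlap cannot be assigned.

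Paralogs, pseudogenes and overlapping genes can share reads. In GENCODE v29 transcripts, 47.6% of the distinct 50-base stretches of KRT18 also occurred, on either strand, in a transcript of another gene. KRT8, which KRT18 overlaps on the opposite strand, was the largest sharer at 21.5%. The part of this share that lies in that overlap was not determined. The share was 37.1% for KRT8, with the pseudogene KRT8P3 leading at 21.5%. It was 17.4% for KRT17 (the pseudogene KRT17P1 leading with 10.2%), 10.8% for KRT7 (mostly its antisense gene KRT7-AS), 4.95% for KRT23, 1.79% for KRT19 and 0 for KRT20. KRT6B shared 47.1%, mostly with KRT6C (44.8%). How reads from such stretches were divided is not known, which leaves the levels of KRT18, KRT8, KRT6B and KRT17 uncertain and touches KRT19 and KRT20 little. The table held 11 keratin pseudogenes, and none of these exceeded 0.309 TPM in any library. KRT8P3 was not among them, so its level is not known here.

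KRT18 and KRT8 dominated. KRT18 was measured at 4788, 4601 and 4723 TPM in GFP, and at 5697, 5721 and 5702 TPM in the CTNNB1 group. All 3 CTNNB1 libraries lay above all 3 GFP libraries and were almost level with one another. The log2 fold change, on log2(TPM + 1) as throughout, was 0.28 (SE 0.036), and KRT18 was called higher, that is with a limma adjusted p under 0.05 over all genes tested. KRT8 was 3307, 3405 and 3415 TPM in GFP against 3796, 3790 and 3826 TPM in CTNNB1, again without overlap, and was called higher by 0.17 (SE 0.036). That call was lost under median-ratio scaling (0.11), without the filter on low genes, and in a fit of all 4 groups.

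The pair did not separate the groups of the hairpin arm. KRT18 was 3777, 3678 and 4513 TPM in shNT1 and 4317, 4113 and 3926 TPM in shAPC. KRT8 was 2680, 2583 and 3302 TPM in shNT1 and 2970, 2776 and 2541 TPM in shAPC. In both genes shNT1 replicate 3 was the highest library of the arm. Without it the KRT18 groups would not overlap, while those of KRT8 still would. Neither was called (KRT18 0.05, SE 0.08, and KRT8 -0.04, SE 0.093). Without shNT1 replicate 3 the log2 fold changes were 0.14 for KRT18 and 0.07 for KRT8, still not called. The same library had the fewest genes above 0, and the part of this in its keratin levels was not tested.

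KRT19 fell in both arms. It was 568, 605.7 and 599.2 TPM in GFP and 508.8, 514.8 and 505.1 TPM in CTNNB1, so every CTNNB1 library lay below every GFP library (log2 fold change -0.21, SE 0.041). In shNT1 it was 430, 419.3 and 507.4 TPM and in shAPC 364.5, 338.1 and 308.8 TPM, also without overlap (-0.42, SE 0.082). The highest of the 4 groups was GFP, the lowest shAPC, and the CTNNB1 and shNT1 ranges overlapped.

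KRT20 behaved differently in the arms. In the open reading frame arm it stayed at 139.5, 137 and 140.7 TPM in GFP and 144.7, 134 and 136 TPM in CTNNB1. These ranges overlapped, and the log2 fold change of -0.01 (SE 0.046) was not called. Under the APC hairpin it fell from 102.4, 104.8 and 112.1 TPM in shNT1 to 71.37, 63.37 and 73.11 TPM in shAPC, with all shAPC libraries lowest (-0.61, SE 0.066). The shAPC mean was 0.651 of the shNT1 mean. Other colon epithelium markers were set beside it: of 7 tested, 5 were lower and none higher in the hairpin arm (median -0.6), where 14.9% of all genes tested were called lower and 7.24% higher (median -0.04). Under CTNNB1 3 were lower and 1 higher (median -0.25), where 7.16% of all genes were called lower and 16.3% higher (median 0.06). CEACAM5, a carcinoembryonic antigen of the colon surface, fell from 11 to 4.02 TPM under shAPC (log2 fold change -1.27, limma adjusted p = 0.00015) and from 26.7 to 12.3 TPM under CTNNB1 (-1.08, limma adjusted p = 0.00016). LGALS4, a galectin of the intestinal epithelium, fell from 951 to 623 TPM under shAPC (-0.61, limma adjusted p = 0.00016) and from 748 to 522 TPM under CTNNB1 (-0.52, limma adjusted p = 9.2e-05). PHGR1 also fell in both arms and GPA33 and CDH1 under shAPC, while VIL1, a microvillus protein, rose under CTNNB1 (0.47, limma adjusted p = 0.00012). The part of this list in the KRT20 values was not tested.

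The promoter of KRT20 is shown because KRT20 was the member with an intestinal differentiation role and the largest fall in the hairpin arm, and because CDX factors are known to act on it. RefSeq promoter sequences were found for 2 of the 10 genes. The 250 bases upstream of the KRT20 start (GRCh38.p14, chr17:40885243-40885492, minus strand) are printed 5′ to 3′ with each TTTAT, the core of a CDX site, or its reverse complement in capitals:
KRT20: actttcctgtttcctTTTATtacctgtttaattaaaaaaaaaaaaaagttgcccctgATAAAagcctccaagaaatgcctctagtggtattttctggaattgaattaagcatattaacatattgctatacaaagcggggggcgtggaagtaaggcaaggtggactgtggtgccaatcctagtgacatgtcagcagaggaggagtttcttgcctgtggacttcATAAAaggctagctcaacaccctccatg
TTTAT was found 3 times on either strand, beginning 235, 193 and 28 bases upstream of the start, and 32.7% of 35116 RefSeq windows of the same length hold it at least once. CTTTGA (a TCF/LEF core, in 11.2% of windows), TGANTCA (AP-1, 6.57%), TATAAA (10.7%) and GGGCGG (SP1, 42.6%) did not occur in the window on either strand. A match is a string of letters and not a measured site. CDX1 averaged between 0.0898 TPM (GFP) and 0.222 TPM (shAPC). CDX2 averaged 0.257 TPM in GFP, 0.505 in CTNNB1, 0.758 in shNT1 and 0.587 in shAPC. For CDX2 every shAPC library lay below every shNT1 library, while the GFP and CTNNB1 ranges overlapped. For CDX1 every CTNNB1 library lay above every GFP library, while the shNT1 and shAPC ranges overlapped. Among all genes tested, groups did not overlap for 43.2% in the open reading frame arm and 40.9% in the hairpin arm. CDX1 and CDX2 were too low to be tested, and their part in the KRT20 values was not tested.

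**Figure D1:**
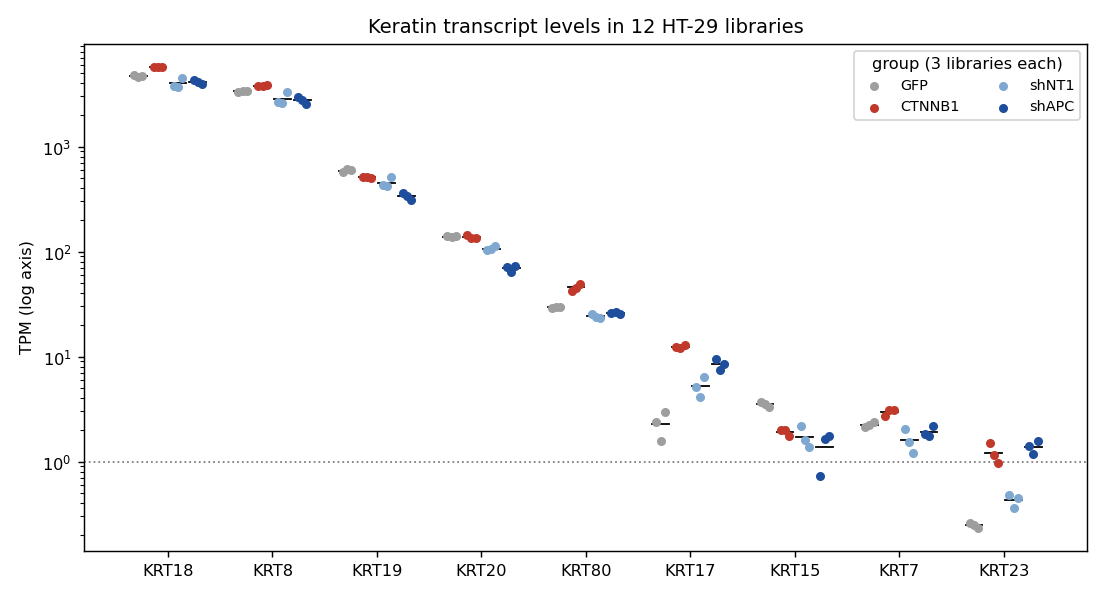
TPM on a log axis of 9 keratin genes (KRT6B is left out because it was at 0 in 9 libraries). Points are single libraries coloured by group, black bars are group means of 3 libraries, and the dotted line marks 1 TPM. KRT18 and KRT8 lie far above the other keratins in every library, and KRT17, KRT15, KRT7 and KRT23 stay under 13 TPM.

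Of the remaining type II chains, KRT80 (ENSG00000167767), an epithelial keratin linked to desmosomes, was the more abundant. It was 28.76, 29.9 and 29.78 TPM in GFP and 42.4, 44.85 and 49.52 TPM in CTNNB1. All CTNNB1 libraries were clearly higher (log2 fold change 0.61, SE 0.064, called). With the hairpins it was 25.34, 23.94 and 23.45 TPM in shNT1 and 26.27, 26.67 and 25.66 TPM in shAPC. These groups did not overlap either, but the difference of 0.11 (SE 0.058) was not called. KRT7, a simple epithelial keratin of ducts and glands, was barely present. It was 2.15, 2.23 and 2.37 TPM in GFP and 2.72, 3.08 and 3.08 TPM in CTNNB1. It was called higher by 0.29 (SE 0.092), and the call was lost in 11 of 13 alternative analyses. In shNT1 it was 2.06, 1.52 and 1.21 TPM and in shAPC 1.83, 1.74 and 2.16 TPM, with overlap and no call (0.18, SE 0.141).

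KRT23, a type I keratin of simple epithelia, was low, and its mean was higher in the perturbed group of each arm. It was 0.263, 0.249 and 0.233 TPM in GFP and 1.49, 1.15 and 0.974 TPM in CTNNB1. In shNT1 it was 0.478, 0.358 and 0.447 TPM and in shAPC 1.41, 1.18 and 1.56 TPM. The perturbed libraries lay above their controls without overlap in each arm, with ratios of group means of 4.86 and 3.23. Because its mean was under 1 TPM over each arm, KRT23 was not among the genes tested. Of those, groups did not overlap for 43.2% in the open reading frame arm and 40.9% in the hairpin arm. With no filter on low genes the KRT23 log2 fold changes were 0.82 and 0.74. Those fits called 2257 of 17849 and 1929 of 17968 genes, KRT23 in both. The authors' deposited tables list 2.15 and 1.7 for it, from a fit whose scale is not given in the sources used here.

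Among the keratins of stratified epithelia, KRT17 (ENSG00000128422, chr17:41619442-41624575) changed most. It was 2.36, 1.57 and 2.96 TPM in GFP and 12.4, 12.1 and 12.8 TPM in CTNNB1. The CTNNB1 libraries were far above GFP and close together, with a ratio of means of 5.42 (log2 fold change 2.05, SE 0.138, called). In shNT1 it was 5.15, 4.08 and 6.43 TPM and in shAPC 9.56, 7.51 and 8.42 TPM. The groups did not overlap, the ratio of means was 1.63, and the rise of 0.62 (SE 0.135) was called. That call was lost without shAPC replicate 1 (0.54) and without the filter on low genes. The GFP libraries were the lowest of all 12, below those of the other control, shNT1.

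KRT15, a keratin of basal cells, went the other way in the open reading frame arm. It was 3.71, 3.5 and 3.29 TPM in GFP and 1.98, 1.98 and 1.76 TPM in CTNNB1, a fall of 0.63 on the log2 scale (SE 0.092, called) with no overlap. In shNT1 it was 2.2, 1.61 and 1.37 TPM and in shAPC 0.728, 1.64 and 1.76 TPM. There the groups overlapped and the log2 fold change of -0.22 (SE 0.191) was not called. It moved to -0.01 without shAPC replicate 1, the lowest library. GFP thus stood above the other 3 groups, and the shNT1 range overlapped those of both CTNNB1 and shAPC. KRT6B was listed at 0 in 9 of 12 libraries and did not exceed 0.0411 TPM.

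In all, 8 of the 10 genes were tested in each arm, KRT23 and KRT6B being too low. In the open reading frame arm 7 were called, 5 higher and 2 lower, where 23.5% of 11624 genes were called (16.3% higher, 7.16% lower). The same 7 did not overlap between groups, against 43.2% of all genes. In the hairpin arm 3 were called (KRT17 higher, KRT19 and KRT20 lower), where 22.1% of 11834 genes were called (7.24% higher, 14.9% lower). Groups did not overlap for 4 of the 8, against 40.9% of all genes. The members' median log2 fold change was 0.23 and 0 in the arms, beside 0.06 and -0.04 for all genes. Higher calls made up 69.5% of all calls in the open reading frame arm (49.4% under median-ratio scaling) and 32.8% in the hairpin arm (47.6% under that scaling). These shares are printed for scale, and nothing is read from them because the genes were chosen with such values known.

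**Figure D2:**
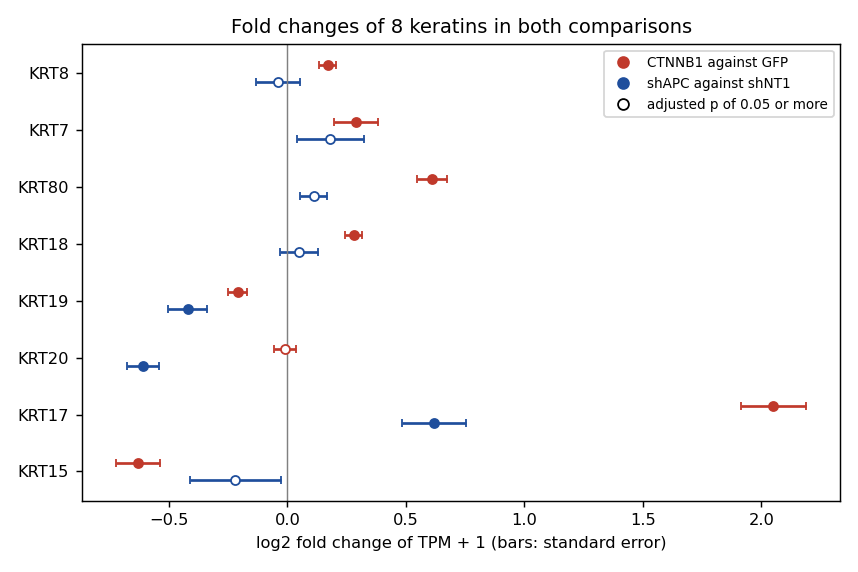
Log2 fold change (x axis, TPM + 1) of the 8 tested keratins (y axis) in CTNNB1 against GFP (red) and shAPC against shNT1 (blue), 3 libraries a group. Bars are standard errors, and open symbols did not pass an adjusted p of 0.05. KRT17 lies at 2.05 and 0.62, and KRT20 at -0.01 and -0.61.

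Ratios within a library do not depend on how libraries are scaled against each other. They can depend on how reads shared by KRT18 (47.6% of its stretches) and KRT8 (37.1%) were divided, which is not known. The KRT8 to KRT18 ratio averaged 0.718 ± 0.025 in GFP and 0.667 ± 0.004 in CTNNB1, and 0.714 ± 0.015 in shNT1 and 0.67 ± 0.021 in shAPC (SD, n = 3 each). The perturbed libraries lay below their controls without overlap in both arms, by 0.11 and 0.09 on the log2 scale. The KRT19 to KRT18 ratio dropped by a closely similar amount in both arms, by 0.49 (from 0.126 ± 0.0066 to 0.0893 ± 7e-04) and by 0.47 (from 0.113 ± 0.0012 to 0.0818 ± 0.0029, SD, n = 3 each), again without overlap. These drops differed in make-up. In the CTNNB1 arm the log2 fold changes were -0.21 for KRT19 and 0.28 for KRT18, both called. In the shAPC arm they were -0.42 for KRT19, called, and 0.05 for KRT18, not called. KRT20 relative to KRT18 was lower by 0.29 in CTNNB1 and by 0.67 in shAPC. KRT20, level in TPM in the CTNNB1 group, was thus lower there against KRT18. KRT17 was higher against KRT18 in both arms, by 2.21 and 0.67, without overlap. KRT80 was higher by 0.35 in CTNNB1 without overlap, and by 0.06 in shAPC, where the groups overlapped. These ratios combine chosen genes and carry no test.

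**Figure D3:**
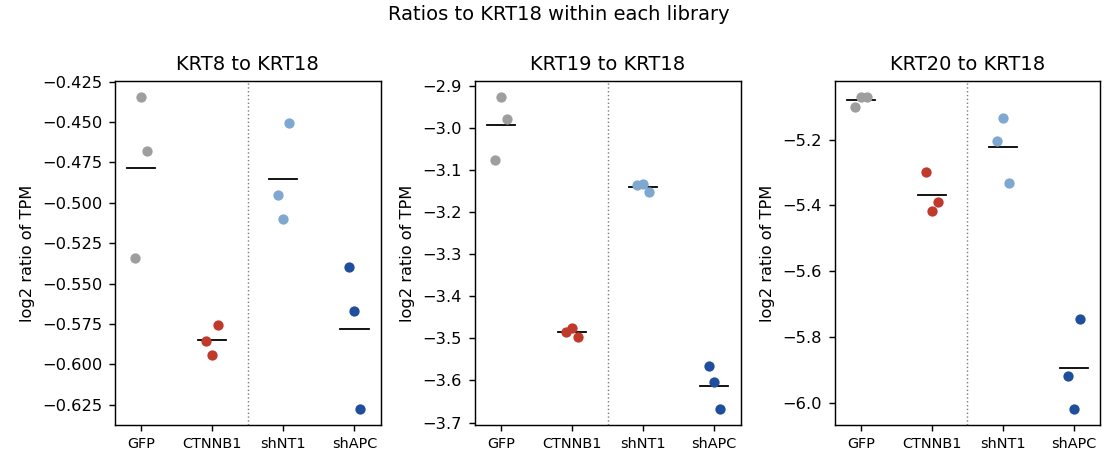
Log2 ratio of the TPM of KRT8, KRT19 and KRT20 to that of KRT18 (y axes, each with its own range) in the 12 libraries by group (x axis). Points are libraries, bars are group means, and the dotted line separates the arms. In each panel the perturbed libraries lie below their own controls, for KRT19 by 0.49 and 0.47.

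Over all 54 keratin genes, type II chains summed to 0.624 ± 0.018 of type I chains in GFP, 0.603 ± 0.0042 in CTNNB1, 0.629 ± 0.014 in shNT1 and 0.613 ± 0.018 in shAPC (SD, n = 3 each). The ranges of perturbed and control libraries overlapped within each arm. Keratins made up 0.887% ± 0.0066 of all TPM in GFP and 1.02% ± 0.0058 in CTNNB1 (SD, n = 3 each). They made up 0.745% ± 0.09 in shNT1 and 0.734% ± 0.044 in shAPC (SD, n = 3 each). KRT8 and KRT18 alone took 91.1% of keratin TPM in GFP, 92.9% in CTNNB1, 91.8% in shNT1 and 93.7% in shAPC. KRT20 took 2.34% ± 0.16 of the type I total in shNT1 and 1.53% ± 0.15 in shAPC (SD, n = 3 each).

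The other 44 keratin genes were nearly silent, with 26 at 0 in all libraries and 42 never reaching 1 TPM. Only KRT13 and KRT10, type I keratins of stratified epithelia, were tested. KRT13 fell in the hairpin arm from 3.98 ± 0.46 to 2.38 ± 0.37 TPM (SD, n = 3 each, log2 fold change -0.56, SE 0.119, limma adjusted p = 0.0083). In the open reading frame arm it was 6.84 ± 0.59 TPM in GFP and 6.03 ± 1.1 TPM in CTNNB1 (SD, n = 3 each, -0.17, limma adjusted p = 0.33). KRT10 was 11.7 TPM in GFP and 9.89 TPM in CTNNB1 (-0.23, limma adjusted p = 0.083), and 11 and 11.2 TPM in shNT1 and shAPC (0.03, limma adjusted p = 0.9). In the open reading frame arm 1 of these 2 genes had an unadjusted limma p under 0.05, and neither was called.

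Markers of stratified epithelium other than keratins were set beside KRT17 and KRT15. Of 15 markers 8 were tested in the open reading frame arm, with 1 higher and 5 lower and a median of -0.21 (all genes 16.3% higher, 7.16% lower, median 0.06). In the hairpin arm 7 were tested, with 1 higher and 4 lower and a median of -0.33 (all genes 7.24% higher, 14.9% lower, median -0.04). TRIM29, a cytoplasmic protein of basal cells, was the higher one in both arms. It rose from 24.9 to 44.2 TPM (log2 fold change 0.8, limma adjusted p = 1.9e-05) and from 38.2 to 49.3 TPM (0.36, limma adjusted p = 0.0035). COL17A1, a hemidesmosomal collagen, fell from 36 to 23 TPM (-0.62, limma adjusted p = 0.00012) and from 25.6 to 15.5 TPM (-0.69, limma adjusted p = 0.00015). SERPINB5, a serpin of epithelial cells, fell from 117 to 68.5 TPM and from 67.6 to 53.7 TPM. ITGB4, a hemidesmosomal integrin, also fell in both arms. Its fall was near the threshold under CTNNB1 (-0.21, limma adjusted p = 0.049) and larger under shAPC (-0.62, limma adjusted p = 0.00093). PI3 fell in the open reading frame arm. TP63, the defining transcription factor of stratified epithelia, stayed under the level for testing in both arms, as did DSG3, DSC3 and IVL.

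Keratin filaments are held by plakins and desmosomal plaque proteins. The list of 15 partners holds these and other keratin-binding proteins such as SFN and FAM83H, and 14 were tested. In the hairpin arm 6 were called, all lower (median -0.19), where 22.1% of all genes were called, 14.9% lower and 7.24% higher (median -0.04). PKP3, a desmosomal plakophilin, fell from 37 ± 3.1 to 25.9 ± 0.97 TPM (SD, n = 3 each, -0.5, SE 0.07, limma adjusted p = 0.00097). SFN (14-3-3 sigma), which binds keratins, fell from 133 ± 4.6 to 97.1 ± 6.6 TPM (SD, n = 3 each, -0.45, SE 0.06, limma adjusted p = 7e-04). PLEC (plectin, which links filaments to hemidesmosomes) fell by 0.44, JUP (plakoglobin) by 0.27, FAM83H by 0.26 and PNN by 0.18. Without shAPC replicate 3 the count was 2.

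In the open reading frame arm 7 partners were called, 3 higher and 4 lower (median 0.07), where 16.3% of all genes were called higher and 7.16% lower (median 0.06). DSP (desmoplakin, which anchors keratins to desmosomes) rose from 74 ± 2.4 to 93.8 ± 13 TPM (SD, n = 3 each, 0.33, SE 0.083, limma adjusted p = 0.019). PPL (periplakin) rose by 0.2. SFN fell by 0.35, PLEC by 0.26, FAM83H by 0.22 and PKP3 by 0.2. These calls were close to the threshold: without GFP replicate 1 the count was 1, without GFP replicate 2 or 3 it was 0, without CTNNB1 replicate 2 it was 2, without the variance trend 3 and with no filter on low genes 1.

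**Figure D4:**
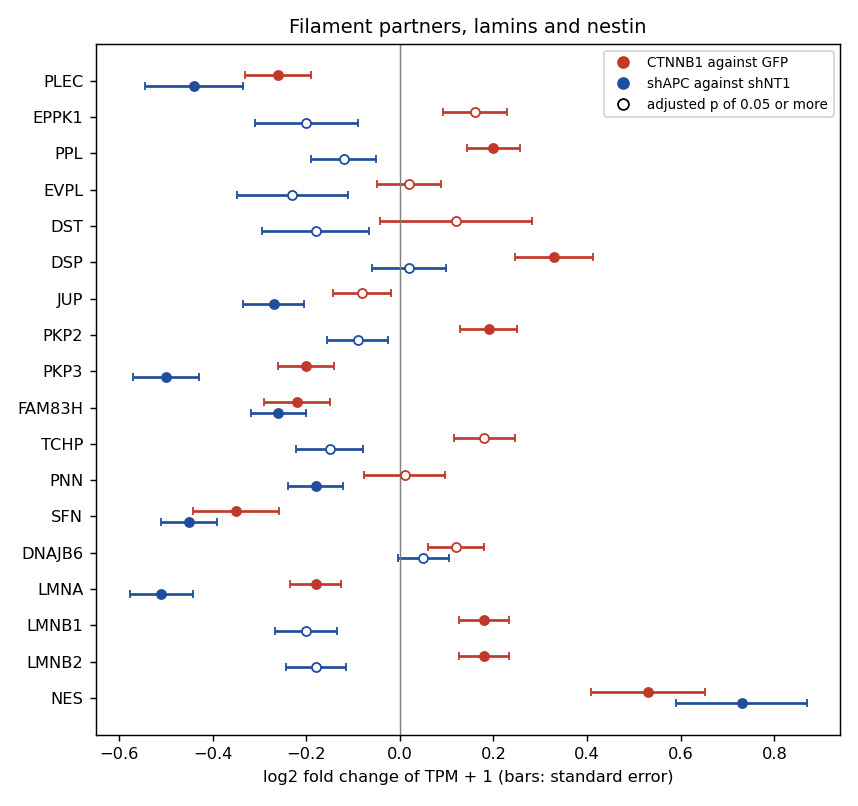
Log2 fold change (x axis, TPM + 1) of 14 filament partners, 3 lamins and NES (y axis) in CTNNB1 against GFP (red) and shAPC against shNT1 (blue), 3 libraries a group. Bars are standard errors, and open symbols did not pass an adjusted p of 0.05. PKP3 lies at -0.2 and -0.5, and DSP at 0.33 and 0.02.

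Of 14 other intermediate filament genes 5 were tested in the open reading frame arm (4 higher, 1 lower, median 0.18) and 6 in the hairpin arm (1 higher, 1 lower, median -0.06). Over all genes 23.5% were called in the first (median 0.06) and 22.1% in the second (median -0.04). NES (nestin, a filament of progenitor cells) was low but rose in both arms, from 0.657 to 1.39 TPM (0.53, limma adjusted p = 0.012) and from 0.724 to 1.87 TPM (0.73, limma adjusted p = 0.0047). Its mean in each control group lay under 1 TPM, so NES reached the level for testing only through the perturbed libraries. The NES calls, and its place in the counts of higher genes above, carry that limit. LMNA, which encodes the A-type nuclear lamins, fell from 251 to 222 TPM (-0.18, limma adjusted p = 0.041) and from 236 to 166 TPM (-0.51, limma adjusted p = 0.00068). BFSP1, LMNB1 and LMNB2 were the others called higher in the open reading frame arm. There the count of 5 dropped to 1, 0 and 1 without GFP replicates 1, 2 and 3, to 3, 0 and 3 without CTNNB1 replicates 1, 2 and 3, to 3 under median-ratio scaling or in a fit of all 4 groups, and to 2 under quantile normalization or without the variance trend. VIM, the mesenchymal filament, averaged between 0.29 TPM (GFP) and 1.17 TPM (shAPC).

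Of 15 epithelial transcription factors 13 were tested in each arm, with 5 higher and 2 lower in the open reading frame arm (median 0.09) and 2 higher and 2 lower in the hairpin arm (median -0.12). Over all genes 16.3% were called higher and 7.16% lower in the first (median 0.06), and 7.24% higher and 14.9% lower in the second (median -0.04). KLF4, a factor of differentiated colon cells, fell from 12.3 to 8.33 TPM (-0.52, limma adjusted p = 0.0016) and from 10.5 to 5.94 TPM (-0.73, limma adjusted p = 0.00027). KLF5, a factor of proliferating crypt cells, fell in the hairpin arm (-0.51, limma adjusted p = 0.00026) and was lower by 0.19 without a call in the other (limma adjusted p = 0.053). GRHL3, an epithelial barrier factor, rose from 4 to 5.4 TPM (0.36, limma adjusted p = 0.01) and from 3.09 to 5.71 TPM (0.71, limma adjusted p = 6e-04). JUN rose in both arms (0.31 and 0.27). EHF and GRHL2 rose, and FOSL1 fell, in the open reading frame arm.

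The CTNNB1 effect minus the shAPC effect was fitted over all 12 libraries and is given as a description, since these values were known when the genes were chosen. Of the 8 keratins tested, 3 were called, all positive, where 16.1% of 11741 genes were called (13.3% positive, 2.76% negative). They were KRT17 (1.43, SE 0.213), KRT20 (0.6, SE 0.081) and KRT80 (0.5, SE 0.084). The difference in KRT17 reflects a larger rise in the CTNNB1 arm, where its control was also lower (2.3 TPM in GFP, 5.22 in shNT1). That in KRT20 reflects a fall called in the shAPC arm only, and that in KRT80 a rise called in the CTNNB1 arm only. The median over all genes was 0.11 for TPM as deposited and 0 under median-ratio scaling, where the 3 differences were 1.34, 0.49 and 0.39 and still called. KRT19 (0.21, SE 0.099), KRT18 (0.23, SE 0.093) and KRT8 (0.21, SE 0.11) were not called, and KRT18 was called under quantile normalization (0.32).

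Genes with the most similar pattern were sought among 9433 genes with a mean of at least 5 TPM, by Pearson correlation of log2(TPM + 1) centred within each arm over the 12 libraries. The points share 4 group means, so high values are common and are only a description. For KRT17 they were SAE1 (r = 0.99), CABLES1 (0.985) and CCND1 (0.982), which changed far less than KRT17 (0.26, 0.49 and 0.57 in the CTNNB1 arm). For KRT20 they were ADIPOR2 (0.979), CAP1 (0.978) and SNRPD1 (0.978). For KRT80 they were KLK10 (0.974), TGIF2 (0.966) and ETV6 (0.961), and for KRT15 NDUFAB1 (0.916), TXN (0.912) and TMEM126A (0.887).

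The authors' deposited tables give the same comparisons from their own fit. For the hairpin arm, the direction (shAPC against shNT1) was inferred from the sign of its APC value (-1.41). In the authors' deposited table for CTNNB1 the log2 fold changes were 2.37 for KRT17, 0.55 for KRT80, 0.2 for KRT18, 2.15 for KRT23, -0.29 for KRT19 and -0.93 for KRT15, each with an adjusted p under 0.05. There KRT8 (0.1) and KRT7 (0.32) did not pass, and KRT20 (-0.08, adjusted p = 0.039 in the authors' deposited table) did. In the authors' deposited table for APC, KRT17 (0.76), KRT19 (-0.38), KRT20 (-0.58) and KRT23 (1.7) passed, and KRT8, KRT18, KRT7, KRT15, KRT80 and KRT6B did not.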

How the data were processed

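RNA-seq was made from 12 libraries of HT-29 cells. The authors deposited a table of TPM per gene. Per the submitters' processing notes STAR 2.7.3a, limma and the build hg38 were used. The annotation, quantification tool and strand setting are not given in the sources used here. The authors also deposited limma tables of log2 fold changes with p-values and adjusted p-values, and a t and a log-odds score per the file headers, not used here.

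For each arm, log2(TPM + 1) was fitted by limma 3.58.1 with a variance trend (R 4.3.3), over genes with a mean of at least 1 TPM in the arm's 6 libraries. Calls needed a two-sided Benjamini-Hochberg adjusted p under 0.05 over all genes tested. Adding 1 understates changes of low genes. The difference between arms was a contrast in 1 fit of 12 libraries. The scripts were tested on simulated data.

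The members and lists were chosen with earlier results of these data known. All 10 members are named, with called list genes up to 6 per list and arm, other keratins with a mean of at least 1 TPM, and the 3 genes most like each member whose log2 fold change reached 0.5. Lists covered filament partners, other intermediate filaments, epithelial transcription factors, stratified and colon epithelium, and other cell types; 1 listed gene is counted but not reported here by name. Alternatives were another pseudocount, filters, scalings, no trend, a joint fit, a stricter threshold, the replicate number as a block, and leaving out each library. Coordinates and the promoter come from RefSeq (GRCh38.p14), and shared stretches from GENCODE v29.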

Additional observations from a re-analysis of the deposited data

Results flagged for a closer look

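The CTNNB1 effect minus the shAPC effect passed the threshold of the limma contrast for 3 keratins, which is why they are listed. The difference was 1.43 on the log2 scale for KRT17, 0.6 for KRT20 and 0.5 for KRT80. The genes were chosen with these fold changes known, so the values are a description and the contrast is no independent test of them. KRT17 was lowest in GFP (2.3 ± 0.7 TPM) and higher in shNT1 (5.22 ± 1.2 TPM, SD, n = 3 each), so the controls differed as well. Vector, collection day and doxycycline differ between the arms and cannot be told apart from the perturbations.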

How the results depend on the processing

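Over 370 recalculated fold changes of the 8 tested keratins, 352 kept their side of the threshold, 16 lost a call and 2 gained one, and no called value changed sign. KRT7 accounted for 11 of the losses. The 7, 3 and 3 keratins called in the CTNNB1 arm, the APC arm and the difference ranged over 6 to 7, 2 to 4 and 3 to 4 when single libraries were left out. At an adjusted p under 0.01 the calls over all genes were 1253, 1151 and 628, in place of 2730, 2615 and 1885. Leaving out single libraries gave 1499 to 3190, 1484 to 2252 and 995 to 2143. Counts moved by over 1.5 times without any GFP library or CTNNB1 replicate 2 (CTNNB1 arm), without shAPC replicate 2 or 3 (APC arm), and without GFP replicate 1 or 2 or shAPC replicate 2 or 3 (difference). With the replicate block, 2895, 1767 and 1145 genes were called, and among the keratins only KRT7 lost its call (CTNNB1 against GFP). Libraries with the same number were not shown to be paired: their deviations correlated at 0.216, 0.07 and 0.115 in the CTNNB1 arm and -0.146, -0.006 and -0.206 in the APC arm. Positive calls in the difference were 82.8%, and 55% under median-ratio scaling. The summed type II to type I ratios were 0.624, 0.603, 0.629 and 0.613 in GFP, CTNNB1, shNT1 and shAPC. With single libraries left out, these summed ratios were 0.616 to 0.634, 0.601 to 0.605, 0.621 to 0.635 and 0.605 to 0.623. Taking KRT8 to KRT18 alone gave 0.718, 0.667, 0.714 and 0.67, a move of at least the SD in each group. The causes were not tested beyond the fewer libraries or stricter threshold. Without counts, the precision of KRT6B and the silent keratins cannot be given.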

Other observations

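KRT75 and KRT40 were singled out after their values had been seen. KRT75, a type II keratin of hair follicles, was listed at 0 in all 6 control libraries and at 0.139, 0.468 and 0.326 TPM in CTNNB1, and at 0.0362, 0.223 and 0.045 TPM in shAPC. KRT40, a type I hair keratin, averaged 0.0577 TPM in GFP, 0.383 in CTNNB1, 0.113 in shNT1 and 0.294 in shAPC. Other keratins at such levels went the other way in both arms. KRT86 averaged 0.126 TPM in GFP, 0.05 in CTNNB1, 0.1205 in shNT1 and 0.0506 in shAPC. KRT4 averaged 0.0724 TPM in GFP, 0.0417 in CTNNB1, 0.0414 in shNT1 and 0.0148 in shAPC. All of these are too low to be tested and depth is unknown.

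The authors' deposited tables pair KRT20 and KRT23 with the identifiers ENSG00000263057 and ENSG00000263309, whereas GENCODE v29 lists ENSG00000171431 and ENSG00000108244 for these symbols on chromosome 17.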
